A study of Mus musculus with 37 samples.

Results

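The comparison described here sets calorie-restricted mice against mice fed ad libitum, all of them housed with running wheels. Its members are the 18 arrays whose diet label is CR+EX or AL+EX, 9 of each, out of 37 arrays in the series. All were C57BL/6 females, randomized at an age of 9 weeks and followed for 6 weeks. AL+EX mice ate ad libitum and had a wheel. CR+EX mice had a wheel and were on 30% restriction: they were given 70% of the calories of ad libitum mice with the full amount of every other nutrient. The remaining arrays came from mice without a wheel, 10 fed ad libitum (AL) and 9 restricted (CR), and they enter here only to share the estimate of the spread and to set the same diet contrast beside the main one. Each array holds biotin-labelled total RNA from the left and right thoracic mammary glands of 1 mouse, pooled. How far each mouse ran, at what time of day glands were taken and how long after a meal was not stated in the labels used here.

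The virgin mouse mammary gland is a small tree of luminal and basal epithelium embedded in a large pad of white fat, with vessels, immune cells and, in thoracic glands, muscle lying close to it. Fat cells take up glucose and turn it into fatty acids through acetyl-CoA and malonyl-CoA, with NADPH as the reductant, and store them as triglyceride. Genes of fatty acid synthesis are known to fall on fasting and to rise on refeeding, and many genes of the circadian clock cycle over the day in fat and liver. In bulk tissue, fewer cells of a type and less RNA per cell cannot be told apart.

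Values are Affymetrix signal intensities, scaled by the authors so that the trimmed mean of each array is the same (499.943 to 499.959, leaving out 2% at each end). Differences are CR+EX minus AL+EX on the scale of log2(signal + 16), which understates the change of dim genes, and are given with the standard error (SE) of a limma fit to all 37 arrays. A gene was called when its p-value, adjusted by Benjamini-Hochberg over 9295 genes, was under 0.05. Animals carry numbers in 4 runs, each of which holds both groups: 2 against 2 mice, 3 against 3, 2 against 2 and 2 against 2. The labels do not say what a run is. Within a run the numbers rise from group to group. The brightest signal on an array was 21016 to 35576 in the first and the second run and at least 40246 in the third and the fourth. The ratio of the Gapdh 3' to 5' control probe sets, a sign of RNA degradation, was 0.785 to 1.493 in AL+EX, but 2.617 and 2.795 in CR+EX replicates 1 and 2, both of the first run. Genes of B lymphocytes were high in 4 AL+EX and 3 CR+EX glands. The labelled tissue was borne out by its markers in both groups: adiponectin, a fat cell hormone, had median signals of 15464 and 17838, and keratin 8 of luminal cells (Krt8) 2361 and 1681. Myoglobin (Mb), a muscle protein, was also bright, at 15074 and 9067. So was Ucp1, a gene of brown fat, which ranged from 5634 to 26323 in AL+EX and from 4454 to 20186 in CR+EX. The fat in these glands was therefore not read as white fat alone.

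With wheels in both groups, restricted glands had higher expression of some enzymes that make fatty acids and NADPH (Elovl6, Acly, Aacs, Acss2 and Me1), of the hydroxybutyrate receptor Hcar2 and of the clock repressor Nfil3, and by lower expression of the clock genes Nr1d1 and Dbp, the ketone enzyme Bdh1 and the epithelial genes Defb1 and Ly6d. In all, 153 of 9295 genes were called, 1.65% of those tested. Of these, 79 were higher in CR+EX (0.85% of the genes tested) and 74 were lower (0.796%). With each array centred on its median instead, 133 were higher and 40 lower. The changes were moderate in size: 101 of the called genes differed by more than 1.5-fold and 23 by more than 2-fold, 13 upward and 10 downward. An unadjusted p under 0.05 was reached by 1412 genes. The median difference of all genes tested was -0.02, and 46.6% of them lay above 0.

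The calls rest in large part on the third run of animals, which holds AL+EX replicates 6 and 7 and CR+EX replicates 6 and 7. The median size of the difference over the 153 called genes was 1.198 there, against 0.60, 0.42 and 0.51 in the first, the second and the fourth run. The corresponding medians over all genes were 0.36 in the third run and 0.20, 0.14 and 0.26 in the others. In 125 of the 153 genes the third run gave the largest difference. Without it, limma called 0 genes, 648 genes had an unadjusted p under 0.05, and the smallest adjusted p was 0.0587. All 153 genes kept their sign in the remaining 14 glands, and 150 of them had an unadjusted p under 0.05 there. The 153 were chosen on glands that include these 14, so both counts are a description and not a separate test. With the run as a block, 27 genes were called in those 14 glands, 21 higher and 6 lower, and 22 of them were among the 153. With the run as a block over all 4 runs, 558 genes were called, all 153 included. The runs left out were chosen after the data were seen, and differences without the third run are given below for the leading genes.

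Fatty acid synthesis had the most genes called higher of the lists described here. Of 19 tested genes on a list of synthesis and desaturation enzymes, 4 were called higher and 0 lower, where 0.85% of all genes tested were called higher. Of the 19, 18 lay above 0, with a median difference of 0.33 against -0.02 for all genes. Elovl6, which lengthens palmitate to stearate, read 4876 to 12113 in AL+EX with a median of 8189, and 11587 to 24330 in CR+EX with a median of 17716. The groups overlapped only where the highest AL+EX gland passed the lowest CR+EX gland. The difference was 1.15 ± 0.18 (SE, n = 9 and 9), with a limma adjusted p of 0.000903, the smallest of any gene tested. Acly, which cuts citrate to acetyl-CoA in the cytosol, read 3581 to 15391 with a median of 6509 in AL+EX and 10701 to 18116 with a median of 14652 in CR+EX. Most AL+EX glands lay below the lowest CR+EX gland. Its difference was 1.07 ± 0.20 (limma adjusted p = 0.0039), and 2 of 4 other probe sets of the gene had the same sign.

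Other enzymes that feed acetyl-CoA into this pathway were among the called genes. Aacs, which activates acetoacetate for lipid synthesis, read 755 to 2844 with a median of 1438 in AL+EX and 2182 to 5654 with a median of 2699 in CR+EX. The difference was 1.27 ± 0.25 (limma adjusted p = 0.00439). Acss2, the cytosolic enzyme that activates acetate, read 1114 to 5132 with a median of 1838 in AL+EX and 2250 to 7473 with a median of 4226 in CR+EX, a difference of 1.11 ± 0.28 (limma adjusted p = 0.0286). It was higher in the first 3 runs and differed by -0.15 in the fourth. The enzymes that carry out the chain reaction itself did not pass the test. Fasn, fatty acid synthase, had median signals of 18838 and 26784, with a difference of 0.37 ± 0.18 (limma adjusted p = 0.331). Acaca, acetyl-CoA carboxylase, differed by 0.11 ± 0.41 and the desaturase Scd1 by -0.16 ± 0.25, with limma adjusted p of 0.931 and 0.825. Fasn and Scd1 read near the brightest signal of the arrays in the first and the second run. There they read 14369 to 26784 and 16238 to 28323, where the brightest signals were 21016 to 35576. In the third run Scd1 read 34990 and 45332 in AL+EX and 31718 and 29425 in CR+EX. Fasn read 17746 and 19314 there in AL+EX and 28756 and 36573 in CR+EX. In the fourth run Scd1 read 55593 and 69846 in AL+EX and 49979 and 32147 in CR+EX. Fasn read 33703 and 30052 there in AL+EX and 40085 and 27851 in CR+EX. Whether a ceiling narrowed the differences of these genes was not tested. In the glands outside the third run, Elovl6 differed by 0.95, Aacs by 0.94, Acly by 0.76 and Acss2 by 0.78.

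**Figure D1:**
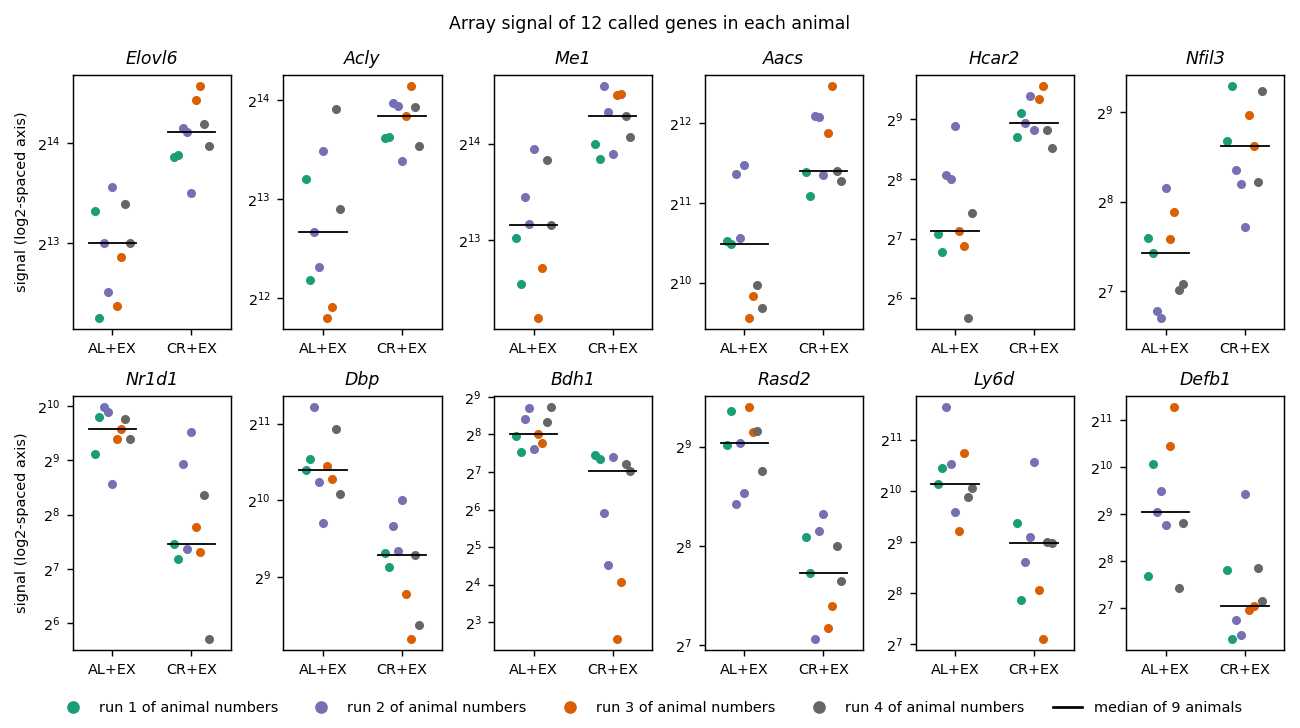
Signal (log2-spaced axis) of 12 called genes in each of the 9 AL+EX and 9 CR+EX mice, coloured by run of animal numbers, with a line at each group's median. The upper genes are higher and the lower genes lower in CR+EX; in Bdh1 and Rasd2 the 9 values of each group do not overlap.

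Genes that supply NADPH were also higher in part. All 9 tested genes of the NADPH and pentose phosphate list lay above 0, with a median of 0.38. Of the 9, 2 were called higher, where 0.85% of all genes tested were. Me1, the cytosolic malic enzyme, which makes NADPH from malate, read 4709 to 15713 with a median of 9127 in AL+EX and 14697 to 24737 with a median of 19991 in CR+EX. A single AL+EX value lay above the lowest CR+EX value. The difference was 1.11 ± 0.20 (limma adjusted p = 0.00217), and 0.84 without the third run. Taldo1, transaldolase of the pentose phosphate pathway, rose by 0.52 ± 0.12 (limma adjusted p = 0.0208), from a median of 3414 to 5060.

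Storage and uptake of fatty acids gave fewer calls, set here beside 0.85% called higher over all genes tested. In the triglyceride esterification list, 12 of 14 genes lay above 0, with a median of 0.28, and 1 was called: Dgat2, which adds the last acyl chain of triglyceride, had medians of 10563 and 16251, a rise of 0.62 ± 0.16 (limma adjusted p = 0.027). Fabp5, a carrier of fatty acids inside cells, was the called member among 10 genes of fatty acid uptake. It read 2051 to 8584 with a median of 3796 in AL+EX and 4675 to 11911 with a median of 8879 in CR+EX, a difference of 1.14 ± 0.26 (limma adjusted p = 0.0168). Abhd5, the co-activator of adipose triglyceride lipase, was the called member among 11 genes of lipolysis and lipid droplets, at 0.55 ± 0.15 (limma adjusted p = 0.0463). None of 19 genes of fatty acid oxidation was called, and their median was 0.07.

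Cholesterol synthesis had 2 called genes, both higher, out of 18 tested, of which 15 lay above 0 with a median of 0.34. Over all genes tested, 0.85% were called higher. Pmvk, phosphomevalonate kinase of the mevalonate pathway, read 245 to 696 with a median of 353 in AL+EX and 433 to 1136 with a median of 810 in CR+EX. The difference was 0.96 ± 0.19 (limma adjusted p = 0.00439), with each run above 0. Nsdhl, which removes a carboxyl group on the way from lanosterol to cholesterol, rose by 0.65 ± 0.13 (limma adjusted p = 0.00439) from a median of 1040 to 1633. Sqle, squalene epoxidase, had medians of 267 and 373 and a difference of 0.42 ± 0.13 (limma adjusted p = 0.0959). None of the 16 genes of the list of lipid regulators and sterol uptake was called, and 8 lay above 0, and 1 was lower with the run as a block. Among them Srebf1, which encodes the transcription factor SREBP-1 that drives fatty acid synthesis genes, differed by 0.38 ± 0.17 (limma adjusted p = 0.283).

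SREBP proteins bind a short sterol element in front of many cholesterol genes. The letters TCACNCCAC, on either strand, were found in the 250 bases before the start of 1.05% of 32851 mouse promoters (RefSeq, GRCm38.p6). Of 15 cholesterol genes tested that had a promoter in that table, 1 held a match: Hmgcs1, HMG-CoA synthase, whose difference here was 0.20 (limma adjusted p = 0.604). Over the tested genes with a promoter in the table, 100 of 7510 held the letters, with 1 called higher and 1 called lower, where 129 of all 7510 were called. The stretch of the Hmgcs1 promoter at chr13:119690184-119690252 (plus strand) is shown because it is the match within this pathway, with the element in capitals.
Hmgcs1: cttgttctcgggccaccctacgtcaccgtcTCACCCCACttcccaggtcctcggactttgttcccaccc

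**Figure D2:**
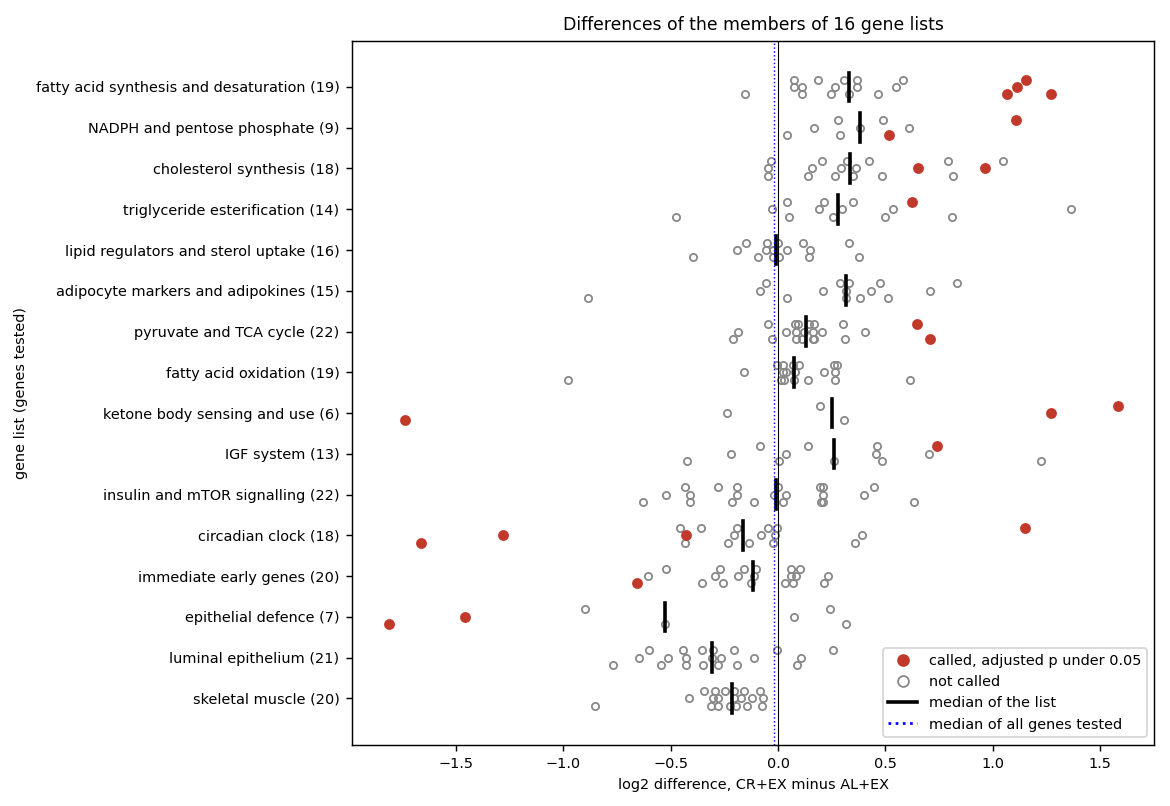
Log2 difference (CR+EX minus AL+EX) of each tested member of 16 gene lists, with called genes filled in red, the list median as a black bar and the median of all genes dotted. The lists of fatty acid, NADPH and cholesterol synthesis lie mostly above 0, with 4, 2 and 2 called genes, while all 20 skeletal muscle genes lie below 0 with none called.

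Genes of ketone body sensing and use went both ways. Ketone bodies are made in the liver during fasting. Hcar2 is the receptor through which hydroxybutyrate and niacin restrain lipolysis in fat cells. It read 51.1 to 476 with a median of 140 in AL+EX and 368 to 753 with a median of 491 in CR+EX, so that 1 AL+EX gland of the second run lay within the CR+EX range. The rise was 1.58 ± 0.37 (limma adjusted p = 0.0187), the largest among called genes, and 1.38 without the third run. Bdh1, the mitochondrial enzyme that converts hydroxybutyrate and acetoacetate into each other, went the other way. Its signals were 185 to 423 with a median of 259 in AL+EX and 5.9 to 175 with a median of 129 in CR+EX, without overlap. The fall was -1.74 ± 0.33 (limma adjusted p = 0.0039). It ranged from -0.32 in the first run to -3.24 in the third, where the CR+EX glands read 5.9 and 16.9, and was -1.31 without that run. A further probe set of Bdh1 had the opposite sign, so the fall rests on the brighter of the pair. Of the 6 genes tested on this list, 2 were called higher (Hcar2 and Aacs) and 1 lower, where 1.65% of all genes tested were called.

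The circadian clock list had 1 gene called higher and 3 called lower out of 18 tested, of which 3 lay above 0, with a median of -0.16. Over all genes tested, 1.65% were called. The clock is a loop in which CLOCK and BMAL1, the product of Arntl, switch on Per, Cry and Nr1d genes through E-boxes, and in which DBP, TEF and HLF activate, and NFIL3 represses, genes with D-boxes. Nr1d1, the repressor REV-ERB alpha, read 380 to 1009 with a median of 762 in AL+EX and 52.4 to 735 with a median of 177 in CR+EX. In the CR+EX group, 2 glands of the second run, at 489 and 735, lay within the AL+EX range. The fall was -1.66 ± 0.32 (limma adjusted p = 0.00439), between -0.84 and -2.35 in the 4 runs and -1.61 without the third. Dbp read 836 to 2375 with a median of 1350 in AL+EX and 292 to 1024 with a median of 623 in CR+EX. It fell by 1.28 ± 0.25 on the log2 scale (limma adjusted p = 0.00439), and by 1.12 without the third run. Nfil3 read 104 to 284 with a median of 172 in AL+EX and 211 to 627 with a median of 393 in CR+EX. Its rise of 1.15 ± 0.20 (limma adjusted p = 0.00153) was present in each run, at 1.40, 0.80, 1.01 and 1.58, and was 1.19 without the third.

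Most other clock genes did not pass the test. Csnk1e, casein kinase 1 epsilon, which phosphorylates PER proteins, was called at -0.43 ± 0.12 (limma adjusted p = 0.0478), and its further probe set had the opposite sign. Nr1d2, the relative of Nr1d1, had medians of 2481 and 1895 and a difference of -0.46 ± 0.17 (limma adjusted p = 0.176). For Per3 the medians were 538 and 469 and the difference -0.43 ± 0.21 (limma adjusted p = 0.317). Arntl differed by 0.39 ± 0.18 and Cry1 by 0.36 ± 0.23. Per1 differed by -0.14 ± 0.21, Per2 by -0.01 ± 0.26, Clock by -0.08 ± 0.18, Tef by -0.23 ± 0.10 and Hlf by -0.02 ± 0.11. The limma adjusted p of these 7 genes ran from 0.225 to 0.996.

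E-boxes and D-boxes were looked for in the 250 bases before the start of each gene. The E-box CACGTG was present in 6.02% of all promoters, in 9.95% of the 7510 tested genes that had one in the table, and in 4 of 15 clock genes, which were Per1, Cry1, Tef and Bhlhe41. The 747 tested genes with an E-box had 7 called higher and 7 called lower, with a median difference of -0.02, where 129 of all 7510 were called. D-box letters, TTATGTAA or TTACGTAA on either strand, were present in 0.931% of all promoters and in 61 tested genes, with a median of 0.01. Per3 was the clock gene with a match and held 2. Where 129 of all 7510 genes were called, 1 of the 61 was: Ptgds, prostaglandin D synthase. It fell by 1.11 ± 0.28 on the log2 scale (limma adjusted p = 0.0285), from a median of 312 to 135. The windows of Nr1d1, Dbp and Nfil3 held neither set of letters. Sites farther from the start, within the gene or with other letters were not searched, so these genes may still hold such elements. The stretches below carry the matches named here, in capitals, and are written 5′ to 3′ on the strand of the gene: Per3 at chr4:151044786-151044900 (minus), Ptgds at chr2:25469853-25469920 (minus), Per1 at chr11:69098753-69098818 (plus) and Cry1 at chr10:85185079-85185144 (minus).
Per3: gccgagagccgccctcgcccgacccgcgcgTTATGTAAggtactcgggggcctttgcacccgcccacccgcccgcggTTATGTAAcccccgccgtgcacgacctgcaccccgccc
Ptgds: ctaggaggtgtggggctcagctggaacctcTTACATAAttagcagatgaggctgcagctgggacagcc
Per1: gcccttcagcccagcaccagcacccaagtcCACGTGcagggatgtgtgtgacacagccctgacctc
Cry1: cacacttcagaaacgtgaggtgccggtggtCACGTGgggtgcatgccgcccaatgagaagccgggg
The Per3 element lies 205 and 158 bases before the start and that of Ptgds 141 bases before it, on the opposite strand as printed. The E-boxes of Per1 and Cry1 lie 166 and 60 bases before their starts.

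Of 7 tested genes of epithelial defence, 2 were called, both lower, where 1.65% of all genes tested were called. The median of the list was -0.53. Defb1, an antimicrobial beta-defensin of epithelia, read 171 to 2490 with a median of 530 in AL+EX and 80.7 to 691 with a median of 131.9 in CR+EX. The groups overlapped, and 1 CR+EX gland, at 691, stood well above the others. The fall was -1.82 ± 0.46 (limma adjusted p = 0.0299) and varied from -0.59 in the fourth run to -3.71 in the third. It was -1.27 without the third run. Ly6d, a membrane-anchored protein of epithelial cells, fell by 1.46 ± 0.34 on the log2 scale (limma adjusted p = 0.0168), from a median of 1118 to 506, and differed by -1.22 without the third run. Beside these, 3 of 21 luminal epithelial markers lay above 0, with a median of -0.31 and none called. With the mean of the luminal markers as a covariate, 353 genes were called, all 153 included, and Defb1 differed by -1.53 and Ly6d by -1.23 (limma adjusted p = 0.0229 and 0.0088). With the mean of the adipocyte markers as a covariate, neither was called (limma adjusted p = 0.0531 and 0.0545). Enpep, glutamyl aminopeptidase, which converts angiotensin II to angiotensin III, was high in CR+EX: 555 to 3123 with a median of 950 in AL+EX against 1764 to 4947 with a median of 3836. The rise was 1.52 ± 0.34 (limma adjusted p = 0.0127), and 1.27 without the third run. None of the other 6 tested genes of the local angiotensin system was called.

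Further genes with a large rise had varied roles. H1f10, a linker histone, rose by 1.33 ± 0.36 (limma adjusted p = 0.046). Clmp, an adhesion molecule of cell junctions that is also made by fat cells, rose by 1.13 ± 0.25 (limma adjusted p = 0.0115), from a median of 405 to 835. Slc2a5, the fructose transporter GLUT5, rose by 1.04 ± 0.26 (limma adjusted p = 0.0265), from 257 to 532. Aldh1a7, an aldehyde dehydrogenase, rose by 0.99 ± 0.24 and the uncharacterized 2010003K11Rik by 1.08 ± 0.18, with limma adjusted p of 0.0213 and 0.000951. The last read 303 to 640 in AL+EX and 498 to 1501 in CR+EX.

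Among the large falls, Rasd2, a small GTPase, separated the groups: 342 to 674 with a median of 527 in AL+EX and 134 to 321 with a median of 212 in CR+EX. Its difference was -1.19 ± 0.24 (limma adjusted p = 0.00471). Trim54, a RING-finger protein of striated muscle, had medians of 1300 and 773, and the 2 AL+EX glands of the third run read highest, at 2811 and 2682. It fell by 1.00 ± 0.23 on the log2 scale (limma adjusted p = 0.0151), and the difference was -0.76 (limma adjusted p = 0.0159) with the muscle level as a covariate. Art5, an ADP-ribosyltransferase, fell by 1.12 ± 0.26, Zfand5, a zinc-finger protein that stimulates the proteasome, by 0.83 ± 0.16, and Ank3, the membrane scaffold ankyrin-G, by 0.91 ± 0.19, with limma adjusted p of 0.0156, 0.00439 and 0.00847. Ccdc77, Twf2, the actin-binding twinfilin-2, the phosphatase Dusp18 and the splicing-related Scaf11 fell by 1.01, 0.96, 0.93 and 0.86, with limma adjusted p between 0.0269 and 0.0406. The AL+EX glands of the third run also read highest for Art5, Zfand5, Ccdc77, Twf2 and Scaf11. Art5 read 1111 and 1072 there, against 195 to 448 in the other AL+EX glands. Zfand5 read 8254 and 10337 against at most 5954, and Ccdc77 451 and 482 against at most 220.

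Carbon metabolism around pyruvate gave 2 called genes among 22, both higher, and 18 of the 22 lay above 0 with a median of 0.13. Over all genes tested, 0.85% were called higher. Pcx, pyruvate carboxylase, which makes oxaloacetate for citrate export, had medians of 10176 and 16539 and rose by 0.71 ± 0.19 (limma adjusted p = 0.0381). Dlat, a subunit of pyruvate dehydrogenase, rose by 0.65 ± 0.15 (limma adjusted p = 0.019). Pgam1 was the called gene of 18 in glucose transport and glycolysis, at 0.52 ± 0.14 (limma adjusted p = 0.0487). It differed by -0.03 in the fourth run. Pdk1, the kinase that holds pyruvate dehydrogenase inactive and a target of hypoxia signalling, rose by 0.62 ± 0.15 (limma adjusted p = 0.0265). Pdk4, its relative induced by fasting, differed by 0.07 ± 0.18. None of 42 respiratory chain and ATP synthase genes was called, and 33 of them lay above 0, with a median of 0.07.

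In the IGF system 1 of 13 genes was called, where 1.65% of all genes tested were called. Igf1, the growth factor itself, read 428 to 1211 with a median of 901 in AL+EX and 900 to 1884 with a median of 1276 in CR+EX, a rise of 0.74 ± 0.20 (limma adjusted p = 0.0461). The difference was 1.22 and 1.68 in the first and the third run and 0.07 and 0.33 in the second and the fourth. Igfals, the subunit that stabilizes IGF complexes in serum, had medians of 210 and 423 and a difference of 1.23 ± 0.39 (limma adjusted p = 0.0907). None of 22 insulin and mTOR signalling genes was called, though 1 was higher and 2 were lower with the run as a block. The smallest p was that of Irs1, an adaptor of the insulin receptor, at 0.63 ± 0.18 (limma adjusted p = 0.0542). Stat5b, which carries growth hormone and prolactin signals, fell by 0.38 ± 0.10 on the log2 scale (limma adjusted p = 0.0406). Asns, asparagine synthetase, rose by 0.73 ± 0.18 and Gpx8, a peroxidase found in the endoplasmic reticulum, by 0.75 ± 0.15, with limma adjusted p of 0.0265 and 0.00439. Ier3, an immediate early gene that limits apoptosis, fell by 0.66 ± 0.12 on the log2 scale (limma adjusted p = 0.0039), and the other 19 genes of that list were not called.

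Adipokines did not pass the test. Lep, the fat cell hormone leptin, varied widely within both groups, from 77.2 to 997 in AL+EX and from 34.7 to 917 in CR+EX, with medians of 398 and 172. The difference was -0.89 ± 0.55 (limma adjusted p = 0.463), and it was 0.40 in the third run. Retn, resistin, had medians of 9173 and 15773 and a difference of 0.83 ± 0.28 (limma adjusted p = 0.115). Adipoq differed by 0.29 ± 0.15 (limma adjusted p = 0.369). Ucp1, the uncoupling protein of brown fat, read 5634 to 26323 in AL+EX and 4454 to 20186 in CR+EX, with a difference of -0.06 ± 0.45. Mest and Sfrp5, genes tied to the expansion of fat tissue, differed by -0.14 ± 0.17 and -0.21 ± 0.29. The milk protein gene Csn2 differed by 0.18 ± 0.23 and the basal keratin Krt5 by -0.29 ± 0.29. The collagen and matrix list had 33 of 40 genes above 0, with a median of 0.23, but none was called. With the run as a block 4 of them were called higher.

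Over all 55 lists, 29 of 741 tested genes were called, 21 higher and 8 lower, so that most of the 153 called genes lay outside them. The share called over all genes tested was 1.65%.

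The 9 and 9 values of a gene did not overlap in 7 genes, 0.0753% of those tested, and 6 of the 7 were called. Bdh1 and Rasd2 are described above. Usp2, a deubiquitinating enzyme, read 2130 to 3113 in AL+EX and 982 to 2122 in CR+EX, a fall of -0.68 ± 0.17 (limma adjusted p = 0.0292). Snx10, a sorting nexin of endosomes, read 1115 to 1405 in AL+EX and 1556 to 2391 in CR+EX and rose by 0.64 ± 0.12 (limma adjusted p = 0.00285). Ncoa4, the receptor that takes ferritin to autophagosomes, read 1518 to 2574 and 2634 to 3740 and rose by 0.61 ± 0.12 (limma adjusted p = 0.00439). For the uncharacterized 4931406C07Rik the ranges were 2464 to 3610 and 3705 to 5090, a rise of 0.52 ± 0.12 (limma adjusted p = 0.0168). The seventh was Srr, serine racemase, chosen here after its values were seen, at 240 to 402 and 418 to 667 with a difference of 0.50 and a limma adjusted p of 0.055.

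The same diet contrast without wheels, CR minus AL, shares no array with the main one. It called 41 genes, 0.441% of those tested, and 1384 had an unadjusted p under 0.05. In both contrasts 16 genes were called, 11 higher and 5 lower in each, which is 10.5% of the 153 and 39.0% of the 41. Among the 153 genes, 151 had the same sign without wheels, and 147 had the smaller difference there, which is a description since the genes were chosen in the contrast with wheels. The test of the difference between the contrasts, the interaction of diet and wheel, called 0 genes (0%) in limma. An unadjusted interaction p under 0.05 was reached by 295 of 9295 genes and by 18 of the 153. The contrast with wheels, on which the 153 were chosen, is part of this interaction. That choice favours small interaction p-values among them, so their count is a description. The smallest adjusted p was 0.279. It belonged to Sars, the cytosolic seryl-tRNA synthetase, which differed by -0.39 with wheels and 0.36 without (unadjusted p = 3e-05 in limma). The next were Cyp8b1, a sterol hydroxylase of bile acid synthesis, at -0.60 and 0.42, and 2610524H06Rik, at 0.54 and -0.19.

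Several leading genes had like values in both contrasts. Nfil3 differed by 1.15 with wheels and 1.24 without, Nr1d1 by -1.66 and -1.81, Dbp by -1.28 and -1.40, and Defb1 by -1.82 and -1.90. Elovl6 differed by 1.15 and 0.86, Me1 by 1.11 and 0.94, and Hcar2 by 1.58 and 1.21, and their interaction p-values were 0.24, 0.543 and 0.469, unadjusted, in limma. Bdh1 stood apart from these in size, at -1.74 with wheels and -0.26 without. Its median signals were 132.4 in AL, 116 in CR, 259 in AL+EX and 129 in CR+EX, so AL+EX was the high group. The unadjusted interaction p of Bdh1 was 0.00269 in limma and did not pass adjustment. Art5, Trim54 and Dusp18 also had smaller differences without wheels, at -0.28, -0.21 and -0.18, with unadjusted interaction p in limma of 0.0231, 0.0168 and 0.0371. These genes and Bdh1 were named for large differences with wheels, which favours small interaction p-values among them.

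**Figure D3:**
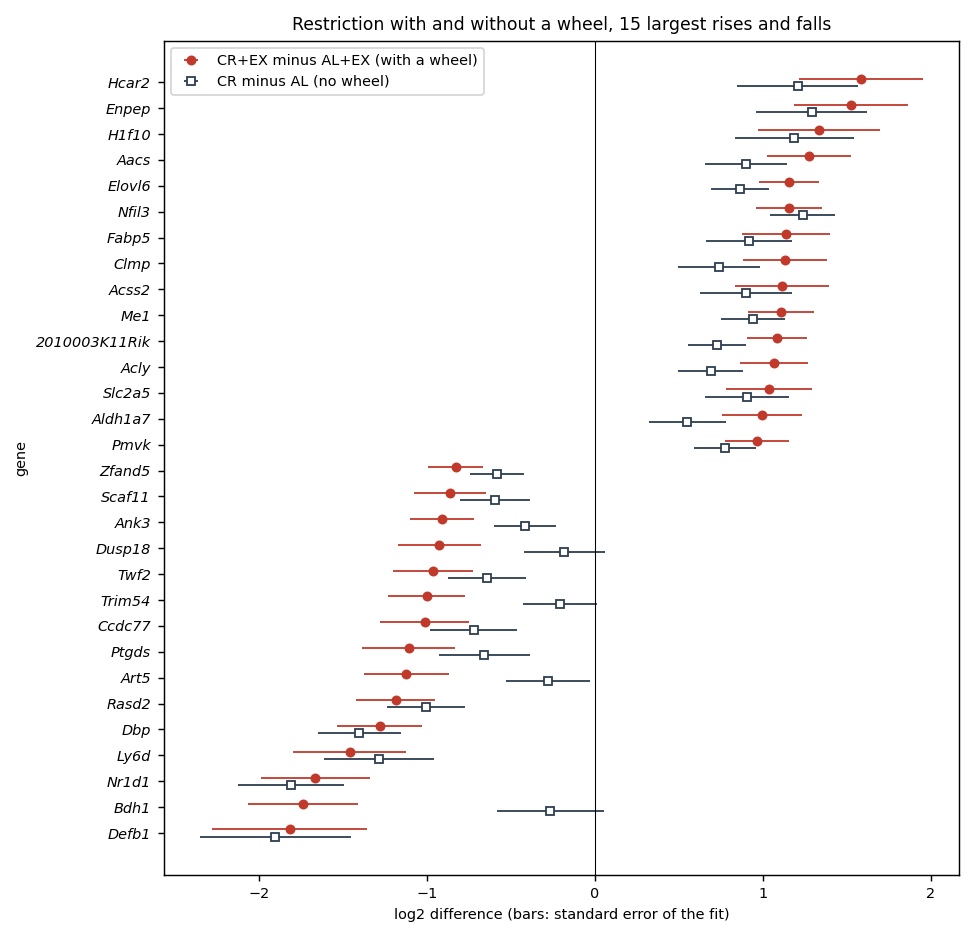
Log2 difference of the 15 largest rises and 15 largest falls with wheels (red, CR+EX minus AL+EX) and without (open squares, CR minus AL), with the standard error of the fit. All 30 have the same sign in both; Bdh1 is the widest gap, at -1.74 and -0.26.

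The within-run differences show how evenly each gene moved. Of the 153 called genes, 150 had the same sign in all 4 runs and 3 in 3 of them, against 22.9% of all genes with the same sign in 4 runs. The 153 were chosen on these same glands, which favours genes that keep their sign across runs, so this is a description. With the third run left out and the run as a block, 11 of the 48 called genes named here were still called. They were Elovl6 (0.95), Nfil3 (1.19), Aacs (0.94), 2010003K11Rik (0.98), Clmp (1.02), Ncoa4 (0.49), Enpep (1.27), Me1 (0.84), Gpx8 (0.76), Snx10 (0.62) and Dbp (-1.12), with limma adjusted p from 0.0223 to 0.0419. Of all 153 called genes, 51 were still called in each of the 18 fits that left out 1 gland. Leaving out single glands changed the call of 26 of the 48 named here. The largest numbers were those of Csnk1e and Abhd5, each lost in 13 of 18 such fits with limma adjusted p up to 0.124 and 0.123, of Stat5b in 12 (0.102), and of Igf1, Pcx and Pgam1 in 11 (0.118, 0.101 and 0.125). H1f10 and Dusp18 were lost in 10 fits, with limma adjusted p up to 0.111 and 0.0944. Defb1 and Ccdc77 were lost in 8, up to 0.0851 and 0.104, and Acss2, Ptgds, Scaf11, Dgat2, Asns and Usp2 in 7, up to between 0.068 and 0.0875. Twf2 and Pdk1 were lost in 6, Slc2a5 and Aldh1a7 in 5, Taldo1 in 4, Fabp5 and Dlat in 2, and Ly6d, Art5 and 4931406C07Rik in 1 each, with limma adjusted p up to 0.0767. AL+EX replicate 7, of the third run, was the gland without which 23 of the 48 were not called.

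**Figure D4:**
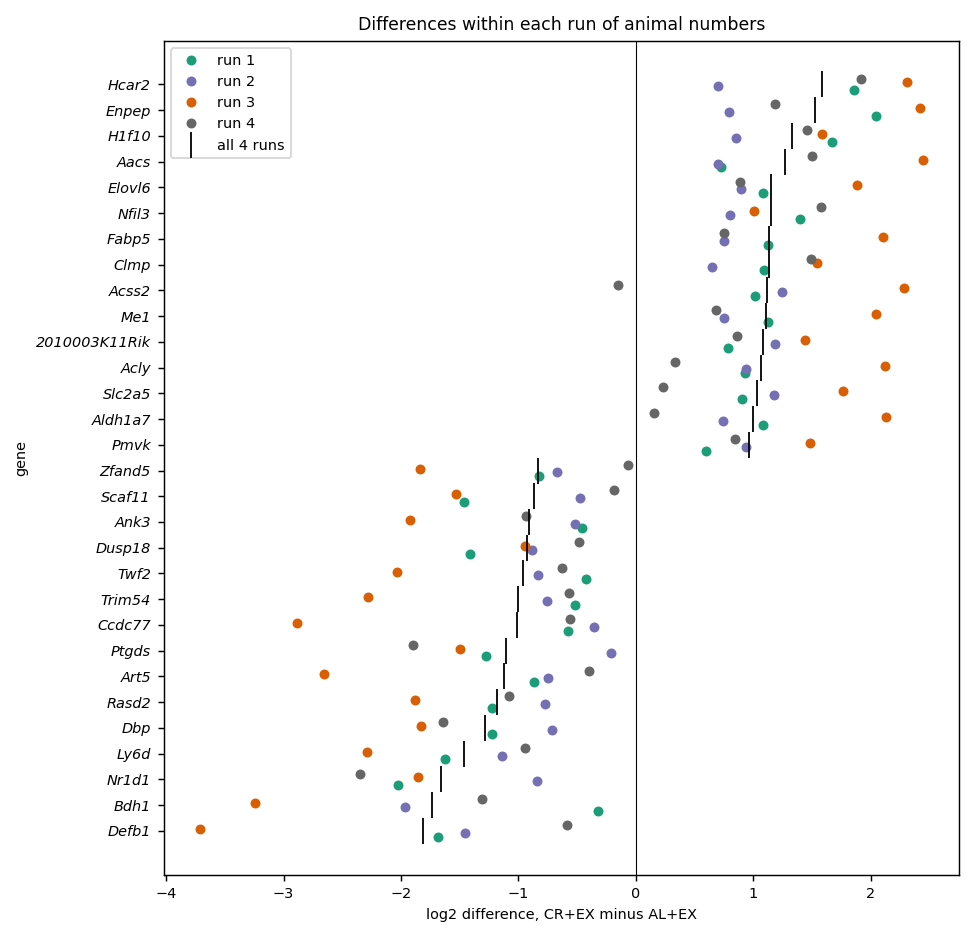
Log2 difference (CR+EX minus AL+EX) of the 15 largest rises and 15 largest falls within each of the 4 runs of animal numbers (coloured points), with the difference over all runs as a black tick. The third run is farthest from 0 in most genes, and Acss2 is the gene with a point on the other side of 0, at -0.15 in the fourth run.

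Markers of other cell types moved with the groups in places. All 20 tested skeletal muscle genes lay below 0, with a median of -0.22 and none called; Mb had the smallest p, at -0.85 ± 0.26 (limma adjusted p = 0.0838). The mean level of that list, on the log2 scale, was 12.91 to 14.11 in AL+EX and 12.97 to 13.78 in CR+EX, with medians of 13.34 and 13.18. The summed signal of the list was 248643 to 605859 and 231738 to 488655. The list's median difference was 0.13, -0.05, -0.69 and -0.47 in the 4 runs in order. Adipocyte markers had 12 of 15 genes above 0 and a median of 0.32, with a mean level of 11.87 to 12.44 in AL+EX and 11.87 to 12.76 in CR+EX, and 0.72 as the median in the third run. Summed signals of the adipocyte list were 99278 to 167061 and 108159 to 193597. All 9 tested B lymphocyte genes lay below 0, with a median of -0.53 and none called, and their summed signals spanned 971 to 10570 and 839 to 6160. Their median was -0.10 without the glands high in these genes. In the third run, AL+EX replicate 6 had a mean B lymphocyte level of 8.91, against 6.98 to 7.16 in the other glands of that run. The luminal list summed to 10127 to 43437 and 13874 to 28075. None of these lists had a called gene, but with the run as a block 3 adipocyte genes were called higher, and 1 muscle gene and 2 luminal genes lower. Other cell types also differed in the third run: the median difference there was -1.03 for luminal markers, -0.96 for B lymphocytes, 0.98 for macrophages, 0.89 for mast cells, 1.19 for lymphatic endothelium and 0.70 for fibroblasts, against 0 for all genes. Only 3 lymphatic and 5 mast cell genes were tested. The mean lymphatic level was 7.86 and 6.79 in AL+EX replicates 6 and 7, and 8.43 and 8.24 in CR+EX replicates 6 and 7. The part of these cell types in the calls was not tested beyond the fits that follow.

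With the mean level of the muscle list as a covariate 71 genes were called, 68 of them among the 153, and with that of the adipocyte list 61, of which 55 were among the 153. All 153, which were chosen on these same glands, kept their sign in both fits. With the adipocyte level in the fit, Elovl6 differed by 1.00, Nfil3 by 1.24, Me1 by 0.90, Acly by 0.97, Nr1d1 by -1.75 and Bdh1 by -1.47, with limma adjusted p from 0.00233 to 0.0175, while Hcar2 at 1.19 and Enpep at 1.37 had limma adjusted p of 0.068 and 0.051. Of the 48 called genes named here, 21 were still called and 27 were not, with limma adjusted p up to 0.157. The lists of triglyceride esterification, fatty acid uptake, lipolysis, IGF system, pyruvate and TCA cycle, glycolysis, amino acid response, epithelial defence, angiotensin, hypoxia and hormone signalling then had 0 called genes. Fatty acid synthesis kept 3, cholesterol synthesis 2, NADPH 1 and the clock list 3. Lep, which is itself on that list, differed by -1.71 in that fit (limma adjusted p = 0.0174). Without the glands high in B lymphocyte genes 59 genes were called, among them 26 of the 48 named here, and Nr1d1 had a limma adjusted p of 0.0502. Without the arrays whose Gapdh ratio was above 2, 218 genes were called, and of the genes named here Slc2a5, Defb1, Ptgds, Dusp18, Scaf11, Csnk1e, Igf1 and Pgam1 were not, with limma adjusted p from 0.0518 to 0.139.

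**Figure D5:**
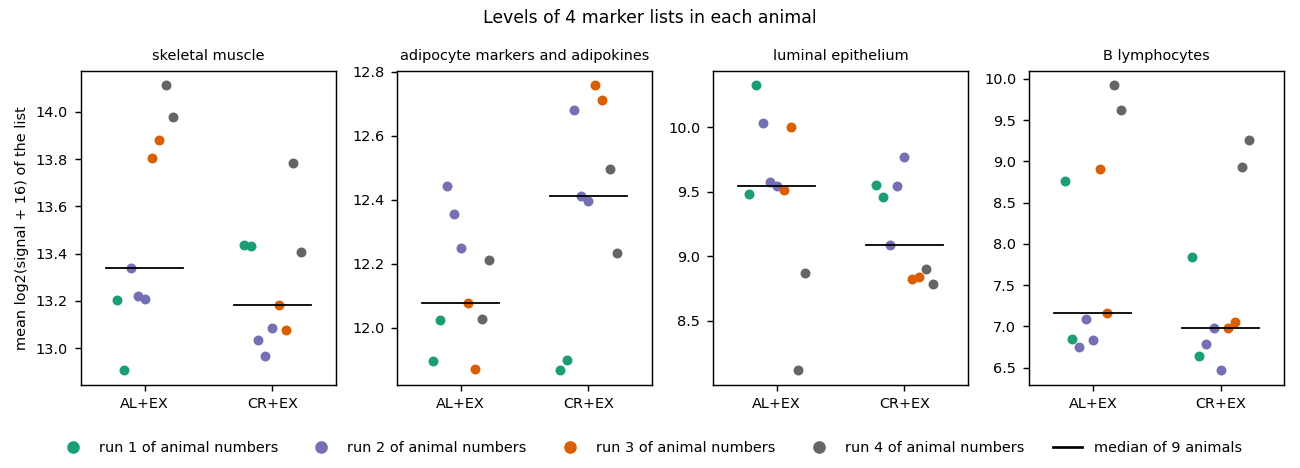
Mean log2(signal + 16) of 4 marker lists in each of the 9 AL+EX and 9 CR+EX mice, coloured by run of animal numbers, with a line at each group's median. In the third run the AL+EX glands are higher in muscle genes and lower in adipocyte genes than the CR+EX glands, and 4 AL+EX and 3 CR+EX glands are high in B lymphocyte genes.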

How the data were processed

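The deposited values are signal intensities per Affymetrix probe set, made by the authors with GCOS 1 per the submitters' processing notes; arrays were scaled to one trimmed mean, as the values show, and the labels used here state no further step. Of 22690 probe sets, 20380 named 1 gene, 691 several and 1555 none, and 64 were controls. The brightest probe set by mean over all arrays stood for each of 12393 genes, and the dimmest 25% (mean under 6.71, a signal of 88.7) were left out. The deposited intensity was taken as log2(signal + 16). limma 3.58.1 in R 4.3.3 fitted the means of the 4 groups (33 residual degrees of freedom, moderated variances with a trend, two-sided tests, Benjamini-Hochberg over 9295 genes). The median residual SD was 0.34. The file gives no detection calls, so the number of arrays limits the precision. In simulated data for this comparison with 9295 genes, shifts of 0.5 and 1 were recovered in 36.4% and 86% of changed genes. Of the calls in those data, 5.23% were false. Whether these rates hold for the measured glands was not tested. In the measured glands, 153 calls became 0 without the third run and 558 with the run as a block. The labels number the animals but pair none of them, and each array is 1 mouse.

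The members and the gene lists were chosen with earlier results of these data known. Named genes are the 15 largest called rises and falls, up to 4 called genes per direction in each list or else its smallest p, the 3 smallest interaction p-values, the called genes without overlap, and a fixed set of metabolic, clock and marker genes; most smallest-p members of lists without calls are not printed. Of 961 list entries 851 were on the array. Promoters were matched by symbol for 7510 of the genes tested. The alternatives tried are other sets of arrays, offsets, filters, scalings, probe-set rules, variance models, covariates and runs, and leaving out each gland.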

Additional observations from a re-analysis of the deposited data

Results flagged for a closer look

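In 224 checks of 112 genes in groups of 9 glands, 8 single values lay far from the rest of their group, where chance gives about 1 in 20. The number of such values is thus no more than chance would give. In CR+EX, Defb1 was highest in replicate 5, at 691 (next 229), and Alas2, an enzyme of heme synthesis, in replicate 3, at 556 (next 324). In AL+EX, replicate 9 was lowest for Mlxipl, a glucose-responsive transcription factor, at 1454 (next 2151), lowest for the co-chaperone Bag3, at 402 (next 880), and highest for the lymph node vessel gene Madcam1, at 480 (next 188). AL+EX replicate 7 was lowest for the lymphatic receptor Flt4, at 33.4 (next 178), and for Csn2, at 43.1 (next 98.9). AL+EX replicate 8 was highest for Arntl, at 308 (next 178).

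Probe sets that name no gene or several genes were not part of the comparison of genes. Tested the same way, 9 of 1269 were called by limma, 5 higher and 4 lower in CR+EX, where 202 of all 15532 probe sets were called. The largest rises were 1.03 and 0.89, and the largest falls -0.80 and -0.77.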

How the results depend on the processing

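Against 153 called genes, limma called 88 with only the 18 arrays compared, 558 with the run of animal numbers as a block, 59 without the glands rich in B lymphocyte genes, 71, 353 and 61 with the level of muscle, luminal or adipocyte genes as a covariate, and 93, 90 and 0 without the first, the second and the third run (391, 386 and 27 with the run as a block, and 600 without the fourth run with the block). Leaving out 1 gland gave 59 to 239: 239 without AL+EX replicate 5, 67 without 6 and 60 without 7; 65 without CR+EX replicate 3, 59 without 4, 72 without 6 and 68 without 7. Centring each array on its median gave 133 higher and 40 lower, against 79 and 74, and moved the median of all genes from -0.02 to 0.04. The covariates and the runs left out were chosen after seeing the data.

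For CR against AL, 41 genes became 573 with the run as a block, 19 with no filter, 69 with the dimmest 50% left out, 17 without a variance trend, 175 with array weights, 9 without those glands, 171 with these genes as a covariate, 10 without the arrays of high Gapdh ratio, 134 and 161 with muscle or adipocyte genes as a covariate, and 16, 22 and 0 without the first, the second and the third run (421, 191 and 0 with the block, and 548 without the fourth with the block). Leaving out 1 wheel gland gave 16 to 72 through the shared spread. The interaction called 0 genes in every alternative run. Within the fourth run Acss2 and Pgam1 changed sign, at -0.152 and -0.034. No paired analysis was possible because the labels do not pair animals of the groups.

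With 9 glands a group, differences of about 0.5 mostly go uncalled in the simulated data, and dim genes have understated differences.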
